A study of Rattus norvegicus with 12 samples.

Results

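The genes described here encode SHP, its inducer FXR and its partner LRH-1, the corepressors NCoR1, RIP140 and HDAC3, and the receptors PPARα, PPARδ and PPARγ. For each of these 9 genes, the row that the array annotation pairs with that gene alone was taken from the value table, out of 18166 genes with such a row. Ppard had 2 rows, and the row with the higher mean was used; the others had 1 row each. RNA was measured on 12 whole-transcript arrays of primary astrocytes from the cerebral cortex of Sprague-Dawley rats aged 1 day, held without serum for 2 days before use as a step against microglia and meningeal cells. The 4 groups of 3 arrays were SHP siRNA with IFN-γ and GW, control siRNA with IFN-γ and GW, control siRNA with IFN-γ, and control siRNA alone. IFN-γ is the cytokine interferon-γ, GW is a compound that the labels name only in this way, and treatment lasted 3 h. All 4 groups carry a transfected siRNA, and SHP siRNA was not used without IFN-γ and GW. Nothing in the labels says that arrays of a group came from separate cultures, so the p-values reflect only how much these arrays vary, and that variation may be technical.

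SHP, the product of Nr0b2, is a nuclear receptor that lacks a DNA-binding domain and represses transcription by binding other nuclear receptors. In the liver it is induced by the bile acid receptor FXR (Nr1h4) and restrains bile acid synthesis through LRH-1 (Nr5a2). NCoR1 is the scaffold that holds the histone deacetylase HDAC3 at silent receptors, and RIP140 (Nrip1) is a corepressor recruited by receptors that have bound their ligand. The PPARs are fatty acid sensors that bind DNA together with RXR and also restrain inflammatory genes, and PPARδ is the most widely expressed of them in the brain.

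Values are deposited log2 array values, and a difference between groups is a difference of log2 values. The 1344 olfactory and vomeronasal receptor genes, most of which are silent outside sensory tissue, served as the background. The 95th percentile of their mean values was 5.34, and 26.5% of the other genes lay under it. The median of all genes was 6.55. The astrocyte markers were well above the background, with 8 of 10 on the array, none of them near background, and a median of 10.76 to 11.32 across arrays. The 11 microglia markers were also all above it, at a median of 8.51 to 9.47, so values cannot be assigned to astrocytes alone. The arrays with number 1 in their titles stood apart from those with numbers 2 and 3: 39.2% of all genes differed between them by limma. Deviations from the group means also correlated between arrays of the same number, which does not by itself show that numbers 2 and 3 are paired. Results are therefore also given with title number as a block and without number 1 where this changes a call.

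Nr0b2, Nr1h4, Nr5a2 and Pparg lay near the level of the receptor genes. Nr0b2 averaged 4.88 over the 12 arrays, above 89.9% of the receptor genes, and was under the 95th percentile of these genes in 12 of 12 arrays. Nr1h4 averaged 4.59, above 84.6% of the receptor genes, and was under that percentile in 12 of 12 arrays. Nr5a2 averaged 5.0, above 91.2% of them, and was under it in 11 of 12 arrays. For these genes the arrays gave a bound rather than a level. Pparg averaged 5.19, above 93.6% of the receptor genes, and was under the percentile in 10 of 12 arrays. Ncor1, Nrip1, Hdac3 and Ppard were above it in every array. Ppara averaged 6.11 and was above it in all arrays but number 3 with IFN-γ alone, where it was 5.41 against a percentile of 5.46 on that array.

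**Figure D1:**
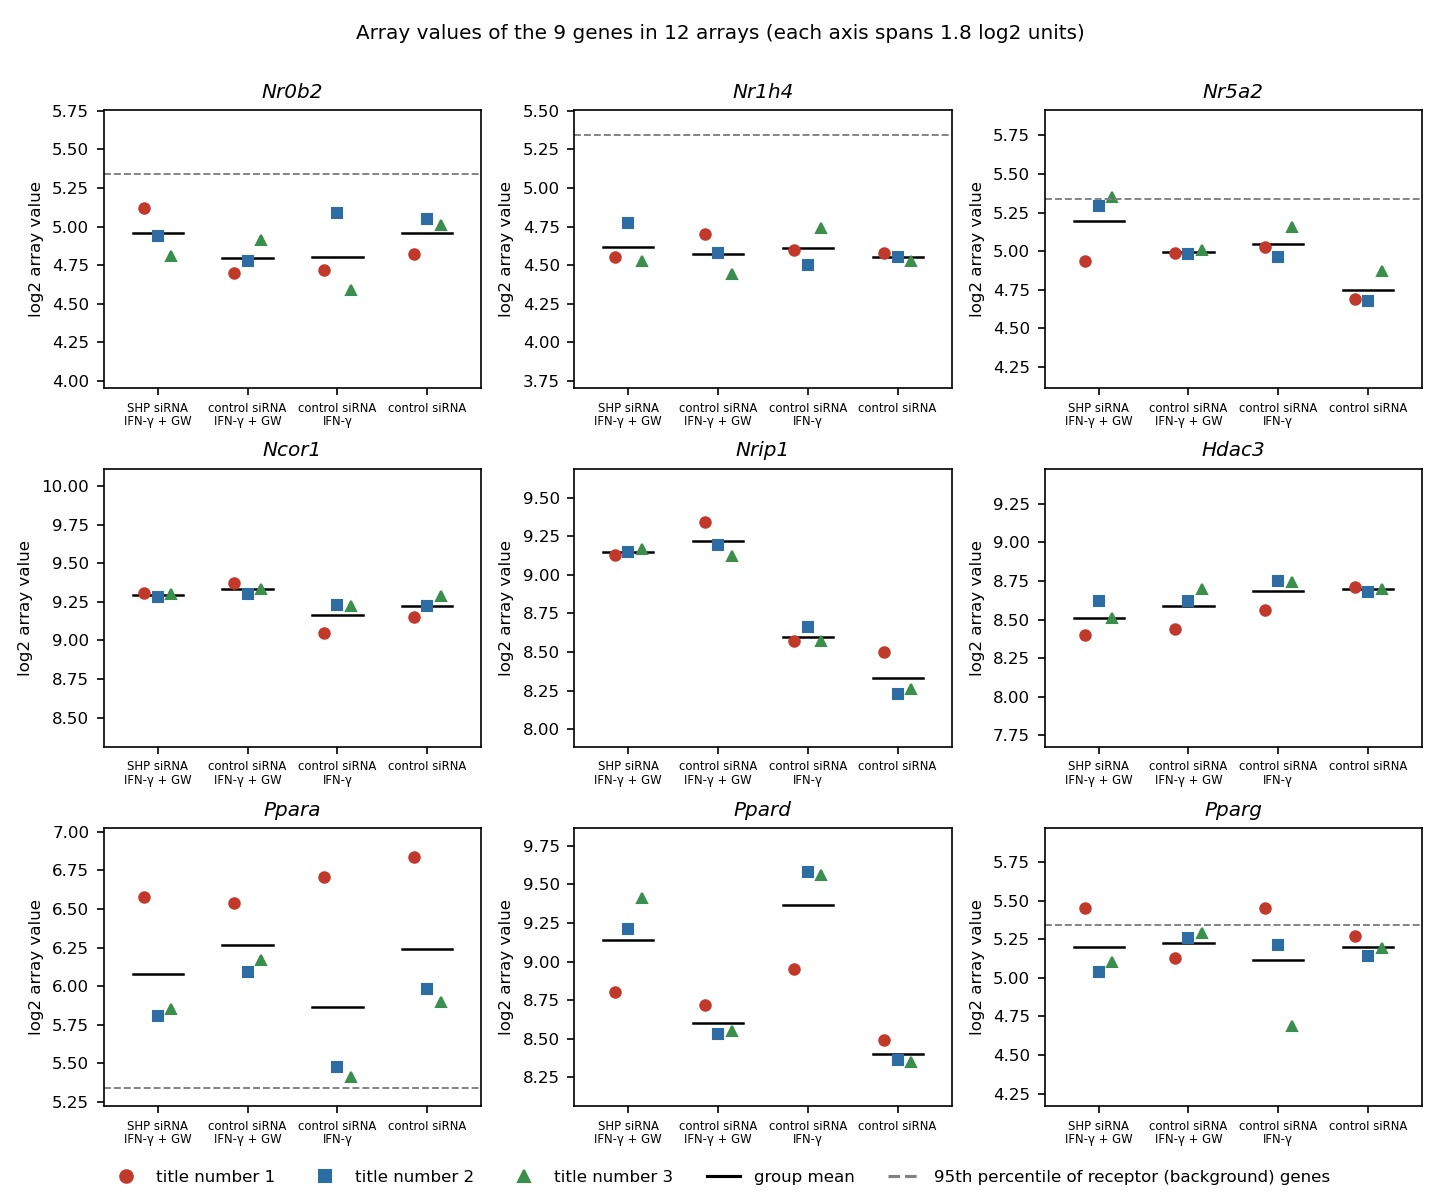
Log2 array values of the 9 genes on each of the 12 arrays, by group, with the group mean as a line, the title number as the symbol and the background percentile as a dashed line. Every panel spans the same number of log2 units. Nr0b2 and Nr1h4 stay under the dashed line, Nrip1 is higher in both groups with GW, Ppard is highest with IFN-γ alone, and Ppara is highest in the number 1 arrays.

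Promoter sequence of 7 of the 9 genes was at hand, from RefSeq with build GRCr8, as windows of 250 bases before and 50 bases after a start site. Those of Nr0b2, the gene named by the siRNA, and of Nrip1, the gene that passed with GW, are printed 5′ to 3′ in the gene's direction. Capitals mark a match to the GAS element, a short palindrome found in many promoters that respond to IFN-γ.
Nr0b2, chr5:151062910-151063209, plus strand: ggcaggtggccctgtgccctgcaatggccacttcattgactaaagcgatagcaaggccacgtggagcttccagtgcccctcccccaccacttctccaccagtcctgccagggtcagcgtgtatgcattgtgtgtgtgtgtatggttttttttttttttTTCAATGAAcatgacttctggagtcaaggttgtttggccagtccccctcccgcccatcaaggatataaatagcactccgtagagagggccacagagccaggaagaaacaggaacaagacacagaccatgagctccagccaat
Nrip1, chr11:28466363-28466662, minus strand: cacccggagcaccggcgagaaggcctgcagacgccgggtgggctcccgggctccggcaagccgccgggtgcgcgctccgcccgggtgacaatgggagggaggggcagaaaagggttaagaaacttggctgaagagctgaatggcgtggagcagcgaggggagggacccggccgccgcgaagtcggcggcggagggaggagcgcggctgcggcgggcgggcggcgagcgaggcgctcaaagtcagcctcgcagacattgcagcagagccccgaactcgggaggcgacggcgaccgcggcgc
On both strands 4 motifs were searched: the nuclear receptor core site AGGTCA, the inverted repeat of that site that FXR binds, the AP-1 site TGANTCA and the GAS element TTCNNNGAA. Every match of the inverted repeat is also a match of the core site. Among the 33469 RefSeq promoter windows of the same length, 16.2% held the core site, 0.0269% the inverted repeat, 7.33% the AP-1 site and 8.87% the GAS element. The Nr0b2 window held the GAS match TTCAATGAA from base -92 to base -84, counted from the start site, and none of the others. The Nrip1 window held none of the 4, which says only that these letters are not in this window. Among the windows not printed, that of Hdac3 also held a GAS match, TTCTCTGAA from base -184 to base -176. A Pparg window held an AP-1 site and an Nr5a2 window the core site.

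The arrays labelled SHP siRNA were set against control siRNA, both with IFN-γ and GW, to ask what reducing SHP changes. Nr0b2 was 5.12, 4.94 and 4.81 with SHP siRNA (numbers 1, 2 and 3), against 4.70, 4.78 and 4.91 with control siRNA. The groups overlapped, and SHP siRNA arrays were not the lower ones. The log2 difference was 0.16 ± 0.14 (SE, n = 3 arrays each; 95% interval -0.15 to 0.47; limma adjusted p = 1), of values near background. These arrays therefore do not show whether the siRNA lowered the transcript, and the directions below rest on the labels.

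None of the 9 genes passed in this comparison, and 0% of all 18166 genes did, by limma at an adjusted p under 0.05. At an unadjusted p under 0.05 there were 1 of the 9 genes and 2.29% of all genes. The gene was Ppard, which was also the only member whose groups did not overlap, against 6.47% of all genes. Ppard was 8.80, 9.21 and 9.41 with SHP siRNA, against 8.72, 8.53 and 8.55 with control siRNA. Each SHP siRNA array was above each control siRNA array, by little for number 1. The difference was 0.54 ± 0.19 (SE; 95% interval 0.13 to 0.95; 1.45-fold), with a limma adjusted p of 1, or 0.75 with title number as a block. Within the numbers it was 0.07, 0.68 and 0.87. Without number 1 it was 0.77 with an adjusted p of 0.004, where 1.47% of all genes passed.

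The corepressors gave narrow intervals between SHP siRNA and control siRNA. Ncor1 was 9.31, 9.28 and 9.30 with SHP siRNA and 9.37, 9.30 and 9.33 with control siRNA (difference -0.04, 95% interval -0.22 to 0.14). Nrip1 was 9.13, 9.15 and 9.17 with SHP siRNA and 9.34, 9.19 and 9.12 with control siRNA (difference -0.07, interval -0.28 to 0.15). Hdac3 was 8.40, 8.62 and 8.51 with SHP siRNA and 8.44, 8.62 and 8.70 with control siRNA (difference -0.07, interval -0.29 to 0.14). The groups overlapped for all 3 corepressors, each with a limma adjusted p of 1. Ppara was 6.58, 5.81 and 5.85 with SHP siRNA and 6.54, 6.09 and 6.17 with control siRNA. The number 1 arrays were high in both groups, and the interval of its difference was -1.0 to 0.62 (adjusted p = 1). Nr5a2, which encodes the SHP partner LRH-1, was 4.94, 5.29 and 5.35 with SHP siRNA and 4.99, 4.98 and 5.01 with control siRNA, with overlapping groups near background (adjusted p = 1). Nr1h4 and Pparg also overlapped (adjusted p = 1 each).

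Control siRNA with IFN-γ and GW was set against control siRNA with IFN-γ to ask what GW changes in IFN-γ-treated cells. Nrip1 rose with GW and was the 1 member of 9 that passed by limma, against 0.886% of all genes. It was 9.34, 9.19 and 9.12 with IFN-γ and GW, against 8.57, 8.66 and 8.57 with IFN-γ. Each GW array lay above each array without it. The means were 9.22 ± 0.11 with IFN-γ and GW and 8.60 ± 0.05 with IFN-γ (SD, n = 3 each), a difference of 0.62 ± 0.10 (SE; 95% interval 0.41 to 0.83; 1.54-fold; adjusted p = 0.017, or 0.0045 with the block). Within numbers 1, 2 and 3 it was 0.77, 0.53 and 0.55. The call depended on the arrays and scaling used, since the adjusted p was 0.08 without GW number 2, 0.074 without IFN-γ number 2, 0.083 without IFN-γ number 3, 0.98 without number 2 in all groups and 0.65 without number 3 in all groups. It was 0.081 after centring on array medians and 0.16 with only these 2 groups in the fit, while the difference stayed at 0.54 to 0.67 whichever arrays were left out.

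Ppard was lower with GW. It was 8.72, 8.53 and 8.55 with IFN-γ and GW, against 8.95, 9.58 and 9.56 with IFN-γ. The groups did not overlap, as for Nrip1 and Ncor1, which made 3 of 9 genes against 15.3% of all genes. The difference was -0.76 ± 0.19 (SE; 95% interval -1.18 to -0.35; 1.7-fold lower). It did not pass by limma on group means (adjusted p = 0.11) and passed with title number as a block (0.029), where 6.55% of all genes passed. Within numbers 1, 2 and 3 the difference was -0.23, -1.05 and -1.02. Without number 1 it was -1.03 (adjusted p = 2.78e-04), and without the number 1 array of IFN-γ alone it was -0.97 (0.015).

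**Figure D2:**
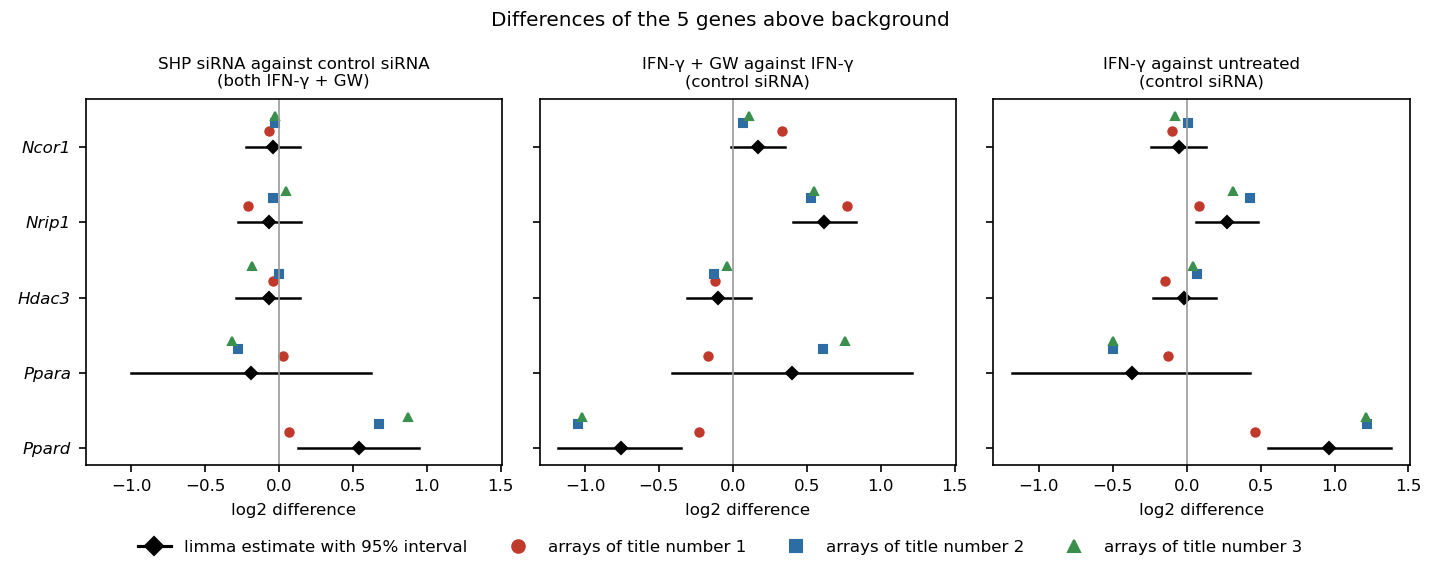
Log2 differences of the 5 genes above background in the comparisons of SHP siRNA with control siRNA, of IFN-γ and GW with IFN-γ, and of IFN-γ with control siRNA alone. Diamonds and bars are limma estimates with 95% intervals, and coloured symbols are the differences within each title number. Ppard lies right of 0 for SHP siRNA and for IFN-γ and left of 0 for GW, each time least so in number 1.

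Ncor1 was 9.37, 9.30 and 9.33 with IFN-γ and GW, against 9.05, 9.23 and 9.22 with IFN-γ. All GW arrays were above the others, by a difference of 0.17 (95% interval -0.01 to 0.35; adjusted p = 0.48). Hdac3, the deacetylase that NCoR1 holds, had overlapping groups at 8.44, 8.62 and 8.70 with IFN-γ and GW and 8.56, 8.75 and 8.74 with IFN-γ (adjusted p = 0.82). Ppara was 6.54, 6.09 and 6.17 with IFN-γ and GW and 6.71, 5.48 and 5.41 with IFN-γ. Number 1 went the other way from numbers 2 and 3, with differences of -0.17, 0.61 and 0.76. Over all arrays the difference was 0.40 ± 0.37 (SE; adjusted p = 0.80). Without number 1 it was 0.69 (adjusted p = 0.0014), and 3 of 9 genes passed, namely Nrip1, Ppara and Ppard, against 11.5% of all genes. Nr0b2, Nr1h4, Nr5a2 and Pparg had overlapping groups near background, with adjusted p-values of 1, 0.94, 0.92 and 0.90. The summed level of the 11 microglia markers, as log2, was 12.11 to 12.28 with IFN-γ and GW and 12.59 to 12.75 with IFN-γ. The 6 neuron markers, 2 of them near background, summed to 11.90 to 11.94 with IFN-γ and GW and 12.08 to 12.19 with IFN-γ. The sums of the astrocyte, meningeal and vascular, and oligodendrocyte lineage markers overlapped between these groups. The part of any of these cells in the differences was not tested. In bulk RNA fewer cells of a type and less RNA per cell cannot be told apart.

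Control siRNA with IFN-γ was set against control siRNA alone to show the response to the cytokine. Of the 9 genes 0 passed by limma, against 0.121% of all genes, and 3 had an unadjusted p under 0.05, against 5.5% of all genes. Ppard, Nrip1 and Nr5a2 had groups that did not overlap, 3 of 9 against 9.3% of all genes. Ppard was 8.95, 9.58 and 9.56 with IFN-γ, against 8.49, 8.36 and 8.35 with control siRNA alone. All IFN-γ arrays were higher, and number 1 showed the smallest gap, with differences of 0.46, 1.22 and 1.21. The difference was 0.96 ± 0.19 (SE; 95% interval 0.55 to 1.38; 1.95-fold; adjusted p = 0.12). With the block Ppard passed (adjusted p = 0.03) as 1 of 9 genes, against 0.936% of all genes. Without number 1 the difference was 1.22 (adjusted p = 1.92e-04), and without the number 1 array of IFN-γ alone it was 1.17 (0.021).

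Nrip1 was 8.57, 8.66 and 8.57 with IFN-γ, against 8.50, 8.23 and 8.26 with control siRNA alone. The groups were apart, narrowly in number 1, by 0.27 ± 0.10 (SE; adjusted p = 0.67). Without number 1 the difference was 0.37 (adjusted p = 0.036, or 0.064 with the block as well). Nr5a2 was 5.03, 4.96 and 5.16 with IFN-γ and 4.69, 4.68 and 4.87 with control siRNA alone, apart but near background (adjusted p = 0.75). Ppara was 6.71, 5.48 and 5.41 with IFN-γ, against 6.84, 5.98 and 5.90 with control siRNA alone. Within each number IFN-γ was lower, by differences of -0.13, -0.50 and -0.50, although the groups as a whole overlapped. Over all arrays this was -0.37 ± 0.37 (SE; adjusted p = 1), and without number 1 it was -0.50 (adjusted p = 0.011, or 0.025 with the block as well). Without number 1 thus 3 of 9 genes passed, Ppard and Nrip1 higher and Ppara lower, against 4.71% of all genes; with the block as well 2 passed, Ppard and Ppara. Ncor1 was 9.05, 9.23 and 9.22 with IFN-γ and 9.15, 9.22 and 9.29 with control siRNA alone. Hdac3 was 8.56, 8.75 and 8.74 with IFN-γ and 8.71, 8.68 and 8.70 with control siRNA alone. Both had overlapping groups and adjusted p-values of 1, and so did Nr0b2, Nr1h4 and Pparg.

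The other pairs of groups come from the same fit and share arrays with the comparisons above. Nrip1 was higher with SHP siRNA, IFN-γ and GW than with control siRNA alone by 0.82 (adjusted p = 0.0047; 1 of 9 genes passed, against 1.2% of all genes). This call was lost without number 2 (0.8) or number 3 (0.53) in all groups. Against control siRNA and IFN-γ, SHP siRNA, IFN-γ and GW gave a difference of 0.55 (adjusted p = 0.047, or 0.014 with the block; 1 of 9 genes, against 0.303%). That call was lost on leaving out any single array of either group (adjusted p 0.066 to 0.25), number 2 or number 3 in all groups (1 each), after centring on array medians (0.17) and with only the 2 groups (0.2), while the difference stayed at 0.53 to 0.58 whichever arrays were left out. With control siRNA, IFN-γ and GW it was higher than with control siRNA alone by 0.89 ± 0.10 (SE; 1.85-fold; adjusted p = 0.0033; 1 of 9 genes, against 0.864%), a call lost without number 2 (0.72), without number 3 (0.29) and with only the 2 groups (0.062). Nrip1 thus had means of 9.15 ± 0.02 with SHP siRNA, IFN-γ and GW, 9.22 ± 0.11 with control siRNA, IFN-γ and GW, 8.60 ± 0.05 with IFN-γ and 8.33 ± 0.15 with control siRNA alone (SD, n = 3 each). The groups with GW overlapped and lay above both others. The summed level of the 11 microglia markers, as log2, was 12.17 to 12.36 with SHP siRNA, IFN-γ and GW and 12.11 to 12.28 with control siRNA, IFN-γ and GW, against 12.59 to 12.75 with IFN-γ and 12.56 to 13.11 with control siRNA alone. Against control siRNA alone, on group means, 0 of these markers were called with SHP siRNA, IFN-γ and GW, beside 1.2% of all genes. With control siRNA, IFN-γ and GW 1 was called lower, beside 0.864% of all genes. With the block 7 were called lower with SHP siRNA, IFN-γ and GW, beside 8.64% of all genes. With control siRNA, IFN-γ and GW the block gave 10 called lower. The share of all genes for that fit is not given here, and 6 of the 80 pathway genes counted below passed in it. The part of the microglia markers in the level of Nrip1 was not tested.

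Ppard followed another order. Its means were 9.14 ± 0.31 with SHP siRNA, IFN-γ and GW, 8.60 ± 0.11 with control siRNA, IFN-γ and GW, 9.36 ± 0.36 with IFN-γ and 8.40 ± 0.08 with control siRNA alone (SD, n = 3 each). The higher neighbours in this order, SHP siRNA, IFN-γ and GW and IFN-γ alone, overlapped (difference of SHP siRNA, IFN-γ and GW from IFN-γ -0.22, 95% interval -0.64 to 0.19, adjusted p = 0.85). The lower neighbours, control siRNA, IFN-γ and GW and control siRNA alone, did not overlap but were close (0.20, interval -0.21 to 0.61, adjusted p = 0.80). SHP siRNA, IFN-γ and GW was above control siRNA alone by 0.74 ± 0.19 (SE; adjusted p = 0.096, or 0.027 with the block). With the block 3 of 9 genes passed in that pair, namely Nrip1, Ppard and Nr5a2, against 8.64% of all genes. Nr5a2 was 4.94, 5.29 and 5.35 with SHP siRNA, IFN-γ and GW, against 4.69, 4.68 and 4.87 with control siRNA alone. The groups did not overlap but lay near background (adjusted p = 0.10, or 0.019 with the block). Without number 1, SHP siRNA, IFN-γ and GW against IFN-γ gave 2 of 9 genes, Nrip1 and Ppara (0.39, adjusted p = 0.031), against 6.21% of all genes. With the block as well, the adjusted p of Ppara was 0.054.

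The 2 rows of Ppard were compared. The row not used was 6.42, 6.39 and 6.45 with SHP siRNA, IFN-γ and GW, 6.53, 6.18 and 6.15 with control siRNA, IFN-γ and GW, 6.50, 6.46 and 6.64 with IFN-γ, and 6.54, 6.13 and 5.94 with control siRNA alone. Its number 1 arrays lay between 6.42 and 6.54, with the groups in the opposite direction to the used row in all 3 comparisons. Over all arrays the difference had the sign of the used row, at 0.13 for SHP siRNA (adjusted p = 1), -0.25 for GW (0.62) and 0.33 for IFN-γ (0.92). Without number 1 these were 0.26 (0.47), -0.39 (0.043) and 0.52 (0.025). For number 1 against numbers 2 and 3 it was 0.21, where the used row gave -0.20.

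**Figure D3:**
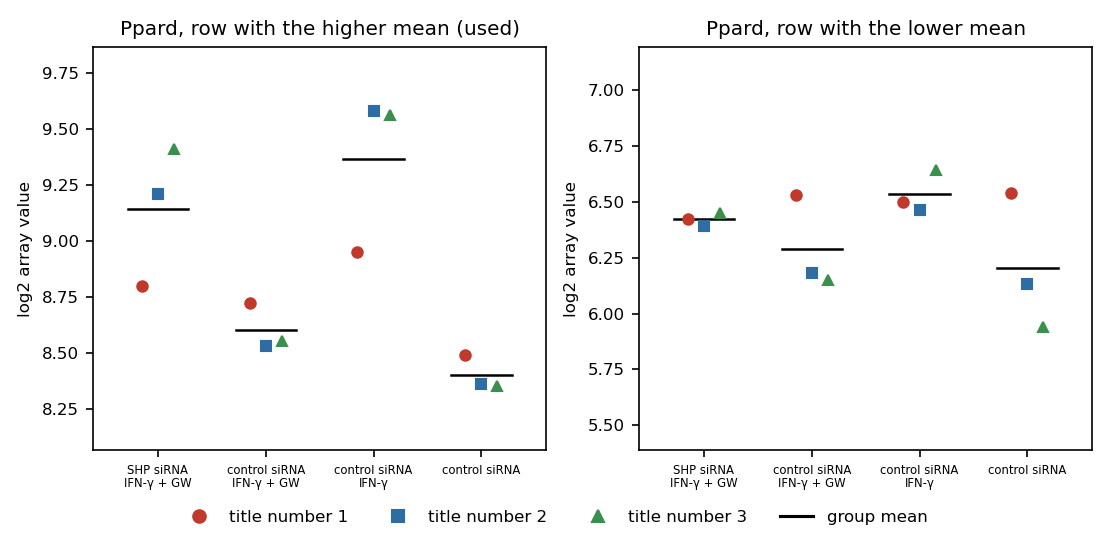
Log2 array values of the used row of Ppard (left) and of its other row (right) on the 12 arrays, by group, with group means as lines and the title number as the symbol. Both panels span the same number of log2 units. In numbers 2 and 3 both rows are higher with SHP siRNA, IFN-γ and GW than with control siRNA, IFN-γ and GW, and higher with IFN-γ than with control siRNA alone.

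Title number 1 was set against numbers 2 and 3 within the groups, because its arrays stood apart. Ppara passed, as 1 of 9 genes against 39.2% of all genes. Its number 1 arrays were 6.54 to 6.84, against 5.41 to 6.17 for numbers 2 and 3. There was no overlap, and number 1 was higher in 4 of 4 groups. The difference was 0.83 ± 0.10 (SE; 95% interval 0.60 to 1.06; 1.78-fold; limma adjusted p = 7.99e-05). By group it was 0.74 with SHP siRNA, IFN-γ and GW, 0.41 with control siRNA, IFN-γ and GW, 1.27 with IFN-γ and 0.90 with control siRNA alone. The SE and p treat arrays that share a number as separate, so they do not measure variation between numbers. Hdac3 was next, at -0.13 (adjusted p = 0.083), with number 1 lowest in 3 of 4 groups. For Ppard the same difference was -0.51 with SHP siRNA, IFN-γ and GW, 0.19 with control siRNA, IFN-γ and GW, -0.62 with IFN-γ and 0.14 with control siRNA alone. The sum of the meningeal and vascular markers, 7 of 8 on the array and 2 of these near background, was 10.35 to 10.91 in number 1 against 12.24 to 12.54 in numbers 2 and 3, as log2. The oligodendrocyte lineage markers, 7 of 8 on the array, summed to 9.82 to 10.10 in number 1 against 10.60 to 10.96 in numbers 2 and 3. The astrocyte markers summed to 13.67 to 13.94 in number 1 against 14.04 to 14.19 in numbers 2 and 3. The 11 microglia markers summed to 12.28 to 13.11 in number 1 against 12.11 to 12.68 in numbers 2 and 3, and the 6 neuron markers, 2 of them near background, to 11.90 to 12.13 in number 1 against 11.91 to 12.19 in numbers 2 and 3. The part of these cells in the level of Ppara was not tested, and the labels do not say what the number marks.

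**Figure D4:**
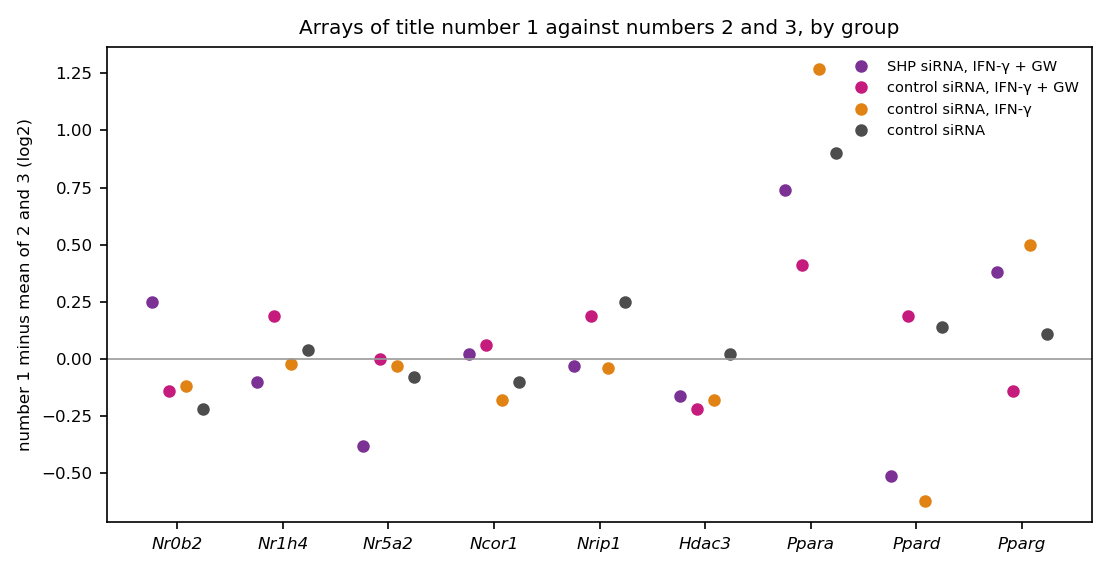
Difference of the number 1 array from the mean of numbers 2 and 3 for each of the 9 genes (log2), with a point for each group. Ppara is above 0 in all 4 groups, at 0.41 to 1.27, while Ppard is below 0 in both groups with high Ppard and above 0 in the others.

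Other genes of these pathways were counted in 6 lists with 92 genes, of which 80 had a row. Between SHP siRNA and control siRNA, both with IFN-γ and GW, 0 of 80 passed by limma, with or without the block, and 2 had an unadjusted p under 0.05, beside 2.29% of all genes. The medians of the log2 differences were 0.02 for 13 corepressor complex genes, -0.02 for 9 coactivators, -0.05 for 22 partner receptors, -0.06 for 12 FXR targets, -0.03 for 17 PPAR targets and -0.03 for 7 genes of SUMO modification, beside -0.02 for all genes. Only 4 of the 12 FXR targets were above background. Nr1d1 encodes REV-ERBα, a heme-sensing repressor that works through NCoR1 and HDAC3. It was 11.07, 8.98 and 8.67 with SHP siRNA, against 10.85, 9.36 and 9.55 with control siRNA. SHP siRNA was the higher in number 1 and the lower in numbers 2 and 3, for a difference of -0.35 over all arrays (adjusted p = 1). Without number 1 it was -0.63 (adjusted p = 0.044), the 1 of 80 genes that passed, beside 1.47% of all genes.

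Between IFN-γ with GW and IFN-γ, 1 of 80 listed genes passed, against 0.886% of all genes. It was Ppargc1b, the coactivator PGC-1β, at 5.71, 5.61 and 5.89 with IFN-γ and GW, against 5.11, 5.26 and 4.92 with IFN-γ. All GW arrays were higher, by 0.64 ± 0.11 (SE; adjusted p = 0.027), of values close to the background percentile. The list medians were 0.12 for the corepressor complex, 0.20 for coactivators, 0.05 for partner receptors, -0.02 for FXR targets, -0.14 for PPAR targets and 0.07 for SUMO modification, beside 0.00 for all genes. With the block 5 of 80 passed, against 6.55% of all genes. They were Ppargc1b, Nr1d1 (1.63), Rora (0.47), an activating receptor that competes with REV-ERBα for DNA, Pdk4 (0.70), the PPAR-induced kinase that restrains glucose oxidation, and Ech1 (-0.37), an enzyme of fatty acid oxidation.

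Nr1d1 was 10.85, 9.36 and 9.55 with IFN-γ and GW, against 9.70, 7.60 and 7.58 with IFN-γ. Within each number the GW array was higher, although the groups overlapped. Angptl4, a secreted PPAR target that inhibits lipoprotein lipase, was 10.26, 8.27 and 8.22 with IFN-γ and GW, against 9.77, 7.36 and 7.24 with IFN-γ. Here too the GW array was higher in each number. Over all arrays its difference was 0.79 ± 0.77 (SE; adjusted p = 0.82), and it did not pass with the block. Of the 17 PPAR targets 12 had a negative difference. Without number 1, 12 of 80 listed genes passed, against 11.5% of all genes. The coactivators were Cited2 (1.99, adjusted p = 4.39e-05), which had the smallest p, Ppargc1b (0.65) and, lower, Ncoa3 (-0.38). In number 1 Cited2 went the other way, at 11.75 with IFN-γ and GW and 11.87 with IFN-γ. Over all arrays the difference of Cited2 was 1.29 (adjusted p = 0.46), and it did not pass with the block. The corepressor genes were Rcor1 (0.55), Tbl1xr1 (0.33) and Sin3a (0.35), and the partner receptors were Nr1d1 (1.86), Rara (0.91) and Rora (0.43). In number 1 Sin3a was 8.64 both with IFN-γ and GW and with IFN-γ, and Rara was lower with GW than without it. The PPAR targets were Angptl4 (0.94, adjusted p = 0.003) and, lower, Plin2 (-0.32), beside 11 of 17 with a negative difference, and the SUMO ligase gene Pias4 was higher (0.42).

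Between IFN-γ and control siRNA alone 0 of 80 listed genes passed on group means, beside 0.121% of all genes, and 3 had an unadjusted p under 0.05, beside 5.5%. With the block 2 passed, against 0.936% of all genes. They were the partner receptors Nr1d1 (-1.04, adjusted p = 0.021 with the block) and Nr2f1 (-0.47, adjusted p = 0.048), an orphan receptor that mostly represses. Nr1d1 was 9.70, 7.60 and 7.58 with IFN-γ, against 10.47, 8.75 and 8.79 with control siRNA alone, lower in each number. Without number 1, 3 of 80 passed, against 4.71% of all genes: Nr1d1 (-1.18), Nr2f1 (-0.58) and Rara (-0.68). In number 1 Nr2f1 was also lower with IFN-γ than with control siRNA alone, but Rara was higher. Over all arrays the difference of Rara was -0.35. The list medians lay between -0.09, for PPAR targets, and 0.00, for coactivators, beside -0.03 for all genes. Between number 1 and numbers 2 and 3, 43 of 80 passed, against 39.2% of all genes. Those with the smallest p in each list were the partner receptors Nr1d1 (1.86), Nr1h3 (1.26), which encodes the oxysterol receptor LXRα, and Rara (1.29), the PPAR targets Angptl4 (1.83), Lpl (-0.65) and Pdk4 (0.92), and the coactivators Ncoa2 (0.49), Ncoa1 (0.37) and Cited2 (1.21). The others were Hdac1 (0.41), Tbl1x (0.34) and Tbl1xr1 (-0.24) of the corepressor complex, the FXR targets Pltp (0.50), Sdc1 (-0.43) and Abcb4 (0.32), and Pias1 (0.46), Pias3 (0.51) and Pias4 (0.41) of SUMO modification. In SHP siRNA, IFN-γ and GW against control siRNA alone, 1 of 80 passed on group means, against 1.2% of all genes. It was Ech1 (-0.50, limma adjusted p = 0.046).

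The genes whose values most resembled those of a member over the 12 arrays were ranked by Pearson r among 12432 genes above background. For Nrip1 these were Cnot4 (0.99), Jun (0.99) and Ccn1 (0.98). Jun, a subunit of AP-1, was 11.26, 11.49 and 11.56 with SHP siRNA, IFN-γ and GW and 11.78, 11.43 and 10.97 with control siRNA, IFN-γ and GW, against 9.77, 10.02 and 10.05 with IFN-γ. It was thus high in both groups with GW, as Nrip1 was. For Ppard they were Socs1 (0.99), C11h3orf38 (0.98) and Ikzf4 (0.97). Socs1, the feedback inhibitor of IFN-γ signalling, was 7.85, 9.70 and 10.37 with SHP siRNA, IFN-γ and GW and 6.75, 6.48 and 6.49 with control siRNA, IFN-γ and GW, against 8.59, 10.90 and 10.82 with IFN-γ and 6.79, 6.29 and 6.45 with control siRNA alone. It was high in the same groups as Ppard, and lower in number 1 than in numbers 2 and 3 of those groups. For Ppara they were Npr3 (0.98), Lrrc1 (0.97) and Agfg2 (0.97), all highest in the number 1 array of each group. For Ncor1 they were Nek6 (0.93), Erc1 (0.91) and Pde7a (0.91), and for Hdac3 Derl1 (0.95), Btd (0.94) and Gng3 (0.93). The arrays share their groups and title numbers, and the top of so many genes is chosen for its likeness, so these are descriptions.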

How the data were processed

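RNA was hybridised to 12 arrays after Trizol extraction and biotin labelling of sense cDNA, per the labels' protocols. The deposited values were on a log2 scale, made by the authors; the base was inferred from their range, 1.01 to 13.43, and how they were summarised and normalised was not given in the sources used here. Of 36685 rows, 18511 were paired with 1 gene, 575 with several and 17599 with none; 18394 were matched to RefSeq by Entrez ID. The row with the highest mean stood for each of 291 genes with several, leaving 18166 genes. Columns of other samples numbered 0. Of the arrays, 4 are re-analyses from an earlier series; the series text does not say which. Column medians were 5.51 to 5.67, and no further scaling was applied. Signal over background limits the precision of the genes near background.

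Groups and numbers came from the sample titles. limma 3.58.1 in R 4.3.3 (lmFit, contrasts.fit, eBayes) was fitted on 4 group means over all arrays, with Benjamini-Hochberg adjustment over all genes; a gene passed at an adjusted p under 0.05. For title numbers, number 1 was contrasted with numbers 2 and 3 with group as a term. The fits were tested on simulated data. Deviations from group means correlated by 0.43 to 0.77 between arrays of the same number, each over 0.1. Because number 1 stood apart, the deviations of numbers 2 and 3 both carry its effect. These correlations therefore cannot show that numbers 2 and 3 are paired, and the block was kept as an alternative. Within groups arrays correlated by 0.970 to 0.996, and 0 pairs were identical. The 9 genes were named in every comparison, and from each list up to 3 genes that passed in a comparison, by smallest p (on group means only, for the other pairs of groups), so most of those that passed between title numbers are only counted; 1 gene was left out of the lists and is not reported here. Jun, Socs1 and the other look-alikes were the 3 highest correlations. The 9 genes, the lists and the alternatives were chosen with earlier results of these data known. Alternatives were other scalings, filters, row choices, groups in the fit, a block and left-out arrays. Figures were drawn with matplotlib 3.10.9.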

Additional observations from a re-analysis of the deposited data

How the results depend on the processing

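Title number as a replicate block gave 2 of 9 genes called for GW, 1 for IFN-γ and 0 for SHP siRNA, and 1189, 170 and 0 of all genes. A block without number 1, chosen after seeing the data, gave 3, 2 and 1 of 9 genes, and 1776, 731 and 231 of all genes. For GW, centring on array medians gave 0 of 9 and 79 of all genes, and fitting only the 2 groups gave 0 of 9 and 4 of all genes. With only the 2 groups, IFN-γ gave 7 of all genes. For number 1 against numbers 2 and 3, the background filter, quantile normalization and leaving out the arrays of control siRNA alone gave 2 of 9, Ppara and Hdac3. Leaving out arrays gave 0 to 1 of 9 for SHP siRNA (0 to 267 of all genes), 0 to 3 for GW (0 to 2081), 0 to 3 for IFN-γ (0 to 856) and 1 to 2 for number 1 (6381 to 7101). The cause of these changes was not tested.

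Signs turned for differences close to 0 and for some further from it. Examples of the latter were Ppard for number 1, at -0.20 with the used row, and Ppara for SHP siRNA, IFN-γ and GW against IFN-γ, at 0.21 over all arrays. For number 1, centring gave 0.04 for Ncor1 and for Nr0b2, quantile normalization 0.03 for Nr0b2, and leaving out control siRNA with IFN-γ and GW -0.03 for Nr1h4. The other row of Ppard gave 0.21 there and the mean of its rows 0.00. The block without number 1 gave 0.05 for Hdac3 with IFN-γ, 0.00 for Nr0b2 with GW and 0.01 for Nrip1 with SHP siRNA. With arrays left out, the range with SHP siRNA was -0.03 to 0.14 for Nr1h4, -0.12 to 0.01 for Nrip1 and -0.21 to 0.06 for Pparg. With GW it was -0.17 to 0.15 for Nr0b2, -0.12 to 0.08 for Nr1h4 and -0.13 to 0.33 for Pparg. With IFN-γ it was -0.06 to 0.05 for Hdac3, -0.09 to 0.00 for Ncor1, -0.01 to 0.12 for Nr1h4 and -0.25 to 0.13 for Pparg. For number 1 it was -0.03 to 0.07 for Nr1h4. For Ppara it was -0.41 to 0.14 for SHP siRNA, IFN-γ and GW against control siRNA alone, -0.03 to 0.64 for the same against IFN-γ and -0.14 to 0.33 for control siRNA, IFN-γ and GW against control siRNA alone. No sign of Ppard or of Nrip1 turned for GW or IFN-γ. With 3 arrays a group, values near background carry only a bound.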
